A study of Mus musculus with 12 samples.

Results

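The EGF family ligands and ErbB receptors measured here were 10 genes out of the 55376 in the count table, chosen by name. They comprised 7 ligand genes (Egf, Tgfa, Areg, Ereg, Hbegf, Btc and Nrg1) and 3 receptor genes (Egfr, Erbb2 and Erbb3), and all 10 were among the 15952 genes with enough reads to test. RNA-Seq libraries were made from the frozen proximal part of the colon of 12 mice aged 12 weeks, 1 library per animal, with 6 mice in each of 2 groups. EPR fl/fl mice, labelled wt under genotype, carried loxP sites around the promoter and the first exon of EPR, a long noncoding RNA gene of epithelia listed under the symbol Smim31. EPR cKO mice carried the same floxed allele together with a CDX2P-NLS Cre transgene, whose human CDX2 promoter drives recombination in epithelial cells of the colon, the cecum and the end of the ileum. Floxed alleles were thus common to both groups, and the control group lacked the Cre transgene. The tissue was not dissected, so each library mixed epithelium with muscle, stroma, vessels, nerves and immune cells, and fewer cells of a type could not be told apart from less RNA per cell. Neither the sex of the mice nor a sequencing batch was given in the labels.

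EGF family ligands are made as membrane-anchored precursors, and proteases cut most of them at the cell surface to release the soluble growth factor. Egf, Tgfa and Areg bind the receptor Egfr, Ereg, Hbegf and Btc bind Egfr and also Erbb4, and Nrg1 binds Erbb3 and Erbb4. Erbb2 has no known ligand of its own and acts as a partner of the other receptors, while Erbb3 has a very weak kinase and signals mainly through such a partner. In the gut this signalling is known for supporting crypt cell proliferation and repair after injury, and Lrig1, Errfi1 and other inhibitors restrain it.

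All of these ligands share 1 structural unit, the EGF-like domain, which contacts the receptor and is held together by 6 cysteines. Its coding stretch is shown for 4 ligands because the results below set Egf against relatives that carry the same domain. The stretch was located by the spacing of the cysteines in the longest annotated coding transcript that holds it (GENCODE M21, mm10 coordinates), runs from the codon of the first cysteine to that of the sixth, and is written along the coding strand with the 6 cysteine codons in capitals. For Egf it lies at chr3:129686322-129690850 on the minus strand in exons 20 and 21 of 24, for Tgfa at chr6:86263200-86269960 on the plus strand in exons 3 and 4 of 6, for Ereg at chr5:91088496-91089111 on the plus strand in exons 3 and 4 of 5, and for Nrg1 at chr8:31837698-31849398 on the minus strand in exons 2 and 3 of 9.
Egf: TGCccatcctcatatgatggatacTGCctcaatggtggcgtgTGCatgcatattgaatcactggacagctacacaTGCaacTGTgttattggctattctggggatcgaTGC
Tgfa: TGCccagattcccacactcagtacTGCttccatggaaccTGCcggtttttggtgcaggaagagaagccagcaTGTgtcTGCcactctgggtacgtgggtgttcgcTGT
Ereg: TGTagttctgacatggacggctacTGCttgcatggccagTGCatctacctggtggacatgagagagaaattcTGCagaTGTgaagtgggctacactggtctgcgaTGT
Nrg1: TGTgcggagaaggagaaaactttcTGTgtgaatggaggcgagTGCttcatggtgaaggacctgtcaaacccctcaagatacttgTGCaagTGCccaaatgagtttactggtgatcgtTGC

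The cysteine pattern occurred once in each of the 6 predicted precursors searched, and in every one an intron interrupted the domain between 2 coding exons. Hbegf was not searched. Domains with another cysteine spacing were not sought, so a single match does not mean a single domain. In Tgfa the pattern was found in 1 of 2 coding transcripts. Because the search was itself by cysteine spacing, the spacing that the matches share was set at least in part by the search. It is given as a description and no likeness between the genes is read from it. The gaps between neighbouring cysteines of the matches were 7, 4, 10, 1 and 8 codons in Tgfa, Areg, Ereg and Btc. This gave a domain of 36 codons. Egf had 5 codons in the second gap and a domain of 37 codons, and Nrg1 had 5 in the second and 13 in the third and a domain of 40 codons. The size of the precursors, which the search did not limit, was 1217 codons in Egf, 159 in Tgfa, 162 in Ereg, 177 in Btc, 248 in Areg and 700 in Nrg1. Ereg, Areg and Btc lie close together on chromosome 5, in this order, with gene spans of 91074622 to 91093646, 91139599 to 91148432 and 91357261 to 91402994, while the other members lie apart from them.

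EPR was first examined as a check of the labels. Smim31 was at 21.3 to 58.1 CPM (counts relative to library size, as counts per megaread, scaled between libraries by the trimmed mean of M values, TMM) in EPR fl/fl and at 0 to 0.424 CPM in EPR cKO, so the groups were far apart (log2 fold change -8.09, SE 0.47, edgeR adjusted p = 1.62e-06). Total counts per library were 13093904 to 30727736 in EPR fl/fl and 18468123 to 33211041 in EPR cKO. All 9 epithelial and all 8 smooth muscle markers were detected well enough to test. A composition score, the mean log2 CPM of the epithelial list minus that of the muscle list, was 1.13 ± 0.28 in the control libraries and 2.32 ± 1.345 in those of EPR cKO (SD, n = 6 each, two-sided exact permutation p = 0.0671, where the smallest possible p is 0.00216). EPR cKO 1 stood apart at -0.12, with the other 5 of its group at 1.92 to 3.54. Without it the score differed by 1.68 (exact p = 0.00433) instead of 1.19, and the genes called over the whole table increased from 392, or 2.46% of those tested, to 3451, or 21.8%. Where leaving it out changed the call of a gene named below, both values are given. Calls of other genes in the lists also changed without it, and these are given only as counts.

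Differences are given as the fitted log2 fold change, or log2 difference, of EPR cKO minus EPR fl/fl. Of the 10 members, 1 fell and none rose at an adjusted p under 0.05 by the edgeR quasi-likelihood test. Egf was that member, and over all tested genes 1.57% fell and 0.884% rose, 2.46% together. At an unadjusted p under 0.05 there were 4 members, Egf and Egfr lower and Tgfa and Hbegf higher in EPR cKO, beside 18.3% of all tested genes. Egf was also the 1 member whose groups did not overlap, which held for 2.47% of all tested genes. No member passed the thresholds of the study, an adjusted p under 0.001 together with a minimum fold change, which 0.169% of tested genes passed. Estimated fold changes were below 0 for 3 members and above 0 for 7, beside 7522 and 8430 of all tested genes. The 7 include Areg and Erbb3, whose sign changed in other fits. The median was 0.20 beside 0.02 for all tested genes.

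**Figure D1:**
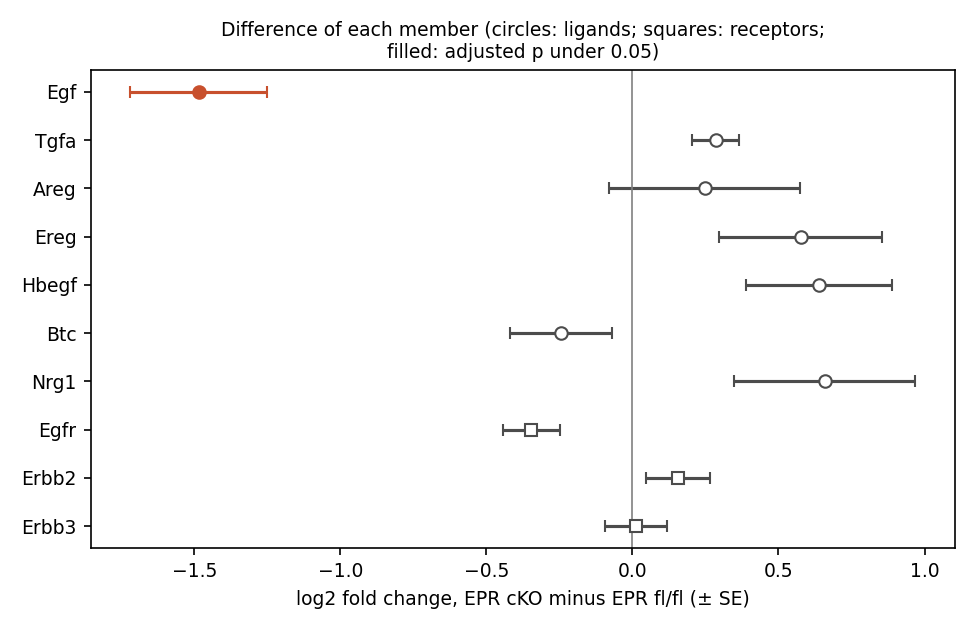
Log2 fold change of each member, EPR cKO minus EPR fl/fl, on the x axis with its standard error as a bar; circles are ligands, squares are receptors, and filled red marks an adjusted p under 0.05. Egf lies at -1.48 and is the one filled point, while the other 9 members lie between -0.35 and 0.66.

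Egf encodes the founding growth factor of the family. Its level in EPR fl/fl was lowest at 4.52, had a median of 7.58 and was highest at 11.5 CPM, and in EPR cKO it was lowest at 2.15, had a median of 2.79 and was highest at 3.65 CPM. All 6 EPR cKO libraries were below every EPR fl/fl library, and the spread was also narrower after deletion. The means were 7.93 ± 2.78 and 2.83 ± 0.54 CPM (SD, n = 6), and the fitted level in EPR cKO was 35.7% of the control (log2 fold change -1.48, SE 0.23, edgeR adjusted p = 0.00470). Among all tested genes Egf ranked 85 by p-value. These values rest on 78 to 363 reads per library in EPR fl/fl and 39 to 117 in EPR cKO. Egf was among the genes for which the study listed qRT-PCR primers, so its choice was not independent of these mice.

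The fall of Egf was past the threshold in each of the 19 other fits. Leaving out each of the 12 libraries in turn gave log2 fold changes of -1.60 to -1.35 and adjusted p-values of 0.00192 to 0.0180, and without EPR cKO 1 the value was -1.43 (adjusted p = 0.00259). With the composition score as a covariate it was -1.65 (adjusted p = 0.0126). Antisense genes, Gm42697 and 6330410L21Rik, overlap 23.1% of the exon bases of Egf, and since the strand setting of the counting is not stated their reads could have been mixed. Those genes had at most 3 reads in any library. How reads in an overlap were assigned is not stated either, so this low count cannot show whether reads were mixed or lost. Antisense overlap was 5.45% of exon bases for Nrg1, 3.42% for Ereg, 2.61% for Tgfa, 0.18% for Erbb2 and 0 for the other 5 members.

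Goblet cell marker estimates had the same direction as that of Egf between the groups. Of 8 such markers, all tested, 5 fell and none rose at an adjusted p under 0.05, namely Muc2, Tff3, Clca1, Spdef and Zg16, and the summed level of the list was 13374 to 28296 CPM in EPR fl/fl and 6039 to 8534 CPM in EPR cKO, with no marker at 0. Leaving out each library in turn, Muc2 was past the threshold in all 12 fits, Tff3 in 10, Zg16 in 8, Clca1 in 7 and Spdef in 2 (those without EPR fl/fl 2 or EPR cKO 1), while 7 of the 8 markers were past it without EPR cKO 1 and 1, Muc2, without EPR cKO 3. Muc2, the main gel-forming mucin of the colon, fell by 2.19 on the log2 scale (SE 0.27, adjusted p = 0.000741) and Tff3, a secreted trefoil peptide, by 0.53 (SE 0.10, adjusted p = 0.0170). The study centres on goblet cell genes in these mice, and the list is not independent evidence of their direction. The log2 ratio of Egf to Muc2 was -9.93 ± 0.47 in the controls and -9.22 ± 0.56 after deletion, and that of Egf to Tff3 was -5.56 ± 0.50 and -6.41 ± 0.34, with ranges that overlapped for both ratios. Within groups the order of the libraries was not the same throughout. In EPR fl/fl the summed marker level and Egf were both highest in EPR fl/fl 3, at 28296 and 11.5 CPM. In EPR cKO the sum was highest in EPR cKO 1, at 8534 CPM, where Egf was lowest at 2.15 CPM. The part of goblet cell content in the fall of Egf was not tested.

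The genes whose pattern over the 12 libraries was nearest to that of Egf were Rgs17, Hepacam2 and Rap1gap. Likeness was the root mean square difference of centred log2 CPM, which was 0.21, 0.25 and 0.25 for these genes beside a root mean square of 0.80 for Egf itself. Rgs17, a regulator of G protein signalling, went from 32.9 ± 8.78 to 11.9 ± 1.30 CPM with a log2 difference of -1.47 ± 0.16 (SE, adjusted p = 0.000293). Hepacam2, a cell adhesion protein of the immunoglobulin superfamily, went from 143 ± 31.4 to 63.4 ± 14.1 CPM and Rap1gap, an inactivator of the small GTPase Rap1, from 118 ± 27.3 to 54.6 ± 8.01 CPM. Nearness to Egf selected these genes, so their fold changes describe the match only.

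**Figure D2:**
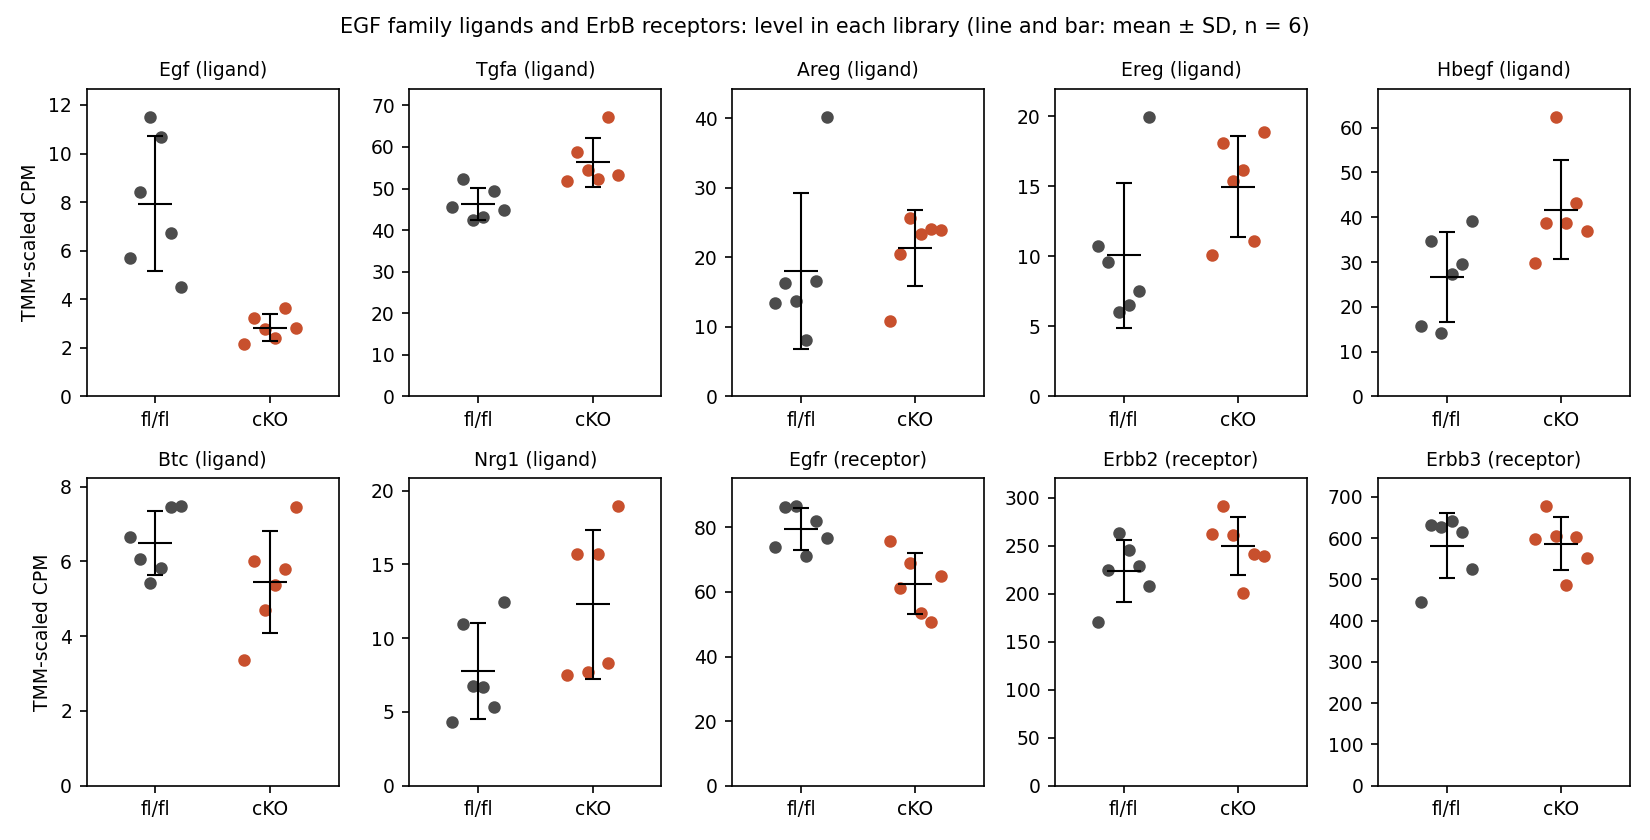
TMM-scaled CPM of each member in each library (y axis, from 0), with EPR fl/fl in grey and EPR cKO in red; the black line and bar give the mean ± SD of 6 libraries. The Egf groups are apart, at 4.52 to 11.5 against 2.15 to 3.65 CPM, and in each of the other 9 panels the groups overlap.

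Tgfa, an Egfr ligand made widely by epithelia, had the most uniform levels among the ligands. It was at 42.3 to 52.3 CPM with a median of 45.2 in EPR fl/fl and at 51.9 to 67.2 CPM with a median of 53.9 in EPR cKO. All 6 EPR cKO libraries lay above the EPR fl/fl median and 4 of them above its maximum, yet the groups overlapped. The means were 46.2 ± 3.88 and 56.3 ± 5.87 CPM (SD, n = 6), a log2 difference of 0.29 ± 0.08 (SE) with an unadjusted p of 0.00342 that gave an adjusted p of 0.0847. Without EPR cKO 1 the difference was again 0.29, and its unadjusted edgeR p of 0.00440 was slightly larger than in the reported fit. The adjusted p was nevertheless 0.0279, in a fit where 21.8% of all genes were called.

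Hbegf, a heparin-binding ligand and a known early-response gene, was at 14.1 to 39.2 CPM with a median of 28.4 in EPR fl/fl and at 29.8 to 62.4 CPM with a median of 38.7 in EPR cKO. The means of 26.7 ± 10.1 and 41.6 ± 11.1 CPM differed by 0.64 on the log2 scale (SE 0.25, unadjusted p = 0.0240, adjusted p = 0.203). All 6 EPR cKO libraries exceeded the control median, although 4 of them stayed within the control range. Without EPR cKO 3, which had the highest level, the estimate was 0.49 (adjusted p = 0.411).

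Ereg encodes epiregulin and Areg encodes amphiregulin, ligands whose genes lie side by side. Ereg was at 6.02 to 20.0 CPM with a median of 8.56 in EPR fl/fl and at 10.1 to 18.9 CPM with a median of 15.8 in EPR cKO, a log2 difference of 0.58 ± 0.28 (SE, adjusted p = 0.296). Its highest value of all was in EPR fl/fl 6, whereas the other control libraries were at most at 10.8 CPM, and without EPR fl/fl 6 the log2 fold change was 0.89 with an adjusted p of 0.0482. Areg was at 8.16 to 40.2 CPM with a median of 15.0 in EPR fl/fl and at 10.8 to 25.6 CPM with a median of 23.6 in EPR cKO, a log2 difference of 0.25 ± 0.33 (SE, adjusted p = 0.697). The highest Areg value was in the same EPR fl/fl 6 library, without which the estimate was 0.66 (adjusted p = 0.176). Without EPR cKO 1, which had the lowest Areg level of its group, the estimate was 0.36 (adjusted p = 0.424). With the composition score as a covariate the estimate for Areg had the opposite sign, -0.11 (adjusted p = 0.930), and no direction is read from it.

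Btc encodes betacellulin, and its estimate was below 0 but, like those of Ereg and Areg, not past the threshold. Btc was at 5.42 to 7.48 CPM with a median of 6.37 in EPR fl/fl and at 3.36 to 7.45 CPM with a median of 5.58 in EPR cKO. The difference of -0.25 (SE 0.17, adjusted p = 0.469) was within the spread of the libraries, and 3 EPR cKO libraries were below the control minimum. Without EPR cKO 1, which had the lowest level, the estimate was -0.16 (adjusted p = 0.470), and with the composition covariate it was -0.54 (adjusted p = 0.138). The means were 6.49 ± 0.86 and 5.45 ± 1.37 CPM.

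Nrg1, the neuregulin that binds Erbb3, was at 4.32 to 12.5 CPM with a median of 6.72 in EPR fl/fl and at 7.49 to 19.0 CPM with a median of 12.0 in EPR cKO. In EPR cKO the libraries formed a lower set of 3 at 7.49 to 8.29 CPM and an upper set of 3 at 15.7 to 19.0 CPM. The means of 7.76 ± 3.24 and 12.3 ± 5.05 CPM differed by 0.66 on the log2 scale (SE 0.31, unadjusted p = 0.0534, adjusted p = 0.281). This was the highest estimate among the members and was not past the threshold in any of the 19 other fits, where it was 0.35 to 0.84. Nrg1 is known from the stroma of the gut, and the summed level of the fibroblast and telocyte markers was 530 to 897 CPM in EPR fl/fl, 1593 CPM in EPR cKO 1 and 227 to 745 CPM in the other EPR cKO libraries, with no marker at 0. Nrg1 itself was at its lowest of the group in EPR cKO 1, at 7.49 CPM, and without that library its estimate was 0.75 (adjusted p = 0.0937). Of the 6 fibroblast and telocyte markers, 4 estimates were below 0 and 2 above 0, and none was past the threshold. Foxl1, a telocyte marker at a mean of 1.06 CPM in EPR fl/fl, hardly enters the sum. Its estimate was 0.45 (edgeR adjusted p = 0.523). The part of stromal cells in the Nrg1 values was not tested.

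Egfr, the receptor of most of these ligands, was at 71.2 to 86.6 CPM with a median of 79.4 in EPR fl/fl and at 50.8 to 75.9 CPM with a median of 63.1 in EPR cKO. EPR cKO 1 was the highest of its group and the other 5 libraries lay below every control. The means were 79.5 ± 6.48 and 62.6 ± 9.48 CPM (SD, n = 6), a log2 difference of -0.35 ± 0.10 (SE) with an unadjusted p of 0.00372 and an adjusted p of 0.0866. Without EPR cKO 1 the log2 fold change was -0.43 and passed the threshold (adjusted p = 0.00721), while with the composition score as a covariate it was -0.22 (adjusted p = 0.311). Smooth muscle markers were at a summed 2881 to 5047 CPM in EPR fl/fl, at 8679 CPM in EPR cKO 1 and at 964 to 2530 CPM in the other EPR cKO libraries. Within EPR cKO, this sum and Egfr were both highest in EPR cKO 1 and both lowest in EPR cKO 5. Within EPR fl/fl, the sum was lowest in EPR fl/fl 2, where Egfr was at 86.4 CPM. It was highest in EPR fl/fl 6, where Egfr was at 76.8 CPM. The part of muscle content in the Egfr values was not tested.

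Erbb2 and Erbb3 differed by less than the spread between libraries. Erbb2 was at 171 to 264 CPM with a median of 227 in EPR fl/fl and at 201 to 291 CPM with a median of 252 in EPR cKO, a log2 difference of 0.16 ± 0.11 (SE, adjusted p = 0.459). Erbb3 was at 446 to 642 CPM with a median of 621 in EPR fl/fl and at 487 to 678 CPM with a median of 600 in EPR cKO, a log2 difference of 0.01 ± 0.11 (SE, adjusted p = 0.956). The estimate for Erbb3 changed sign with total-count scaling (-0.03) and in 6 other fits, so it has no direction. These receptors had the deepest coverage of the members, with 2332 to 8317 and 6095 to 19785 reads per library.

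Levels were compared between genes per kilobase of exon (RPKM, from the TMM-scaled CPM). In EPR fl/fl the order of the mean RPKM was Erbb3 at 96.7 ± 13.1, Erbb2 at 44.6 ± 6.39, Areg at 14.9 ± 9.26, Hbegf at 11.3 ± 4.24, Tgfa at 10.2 ± 0.857, Egfr at 7.26 ± 0.591, Ereg at 2.44 ± 1.253, Btc at 2.25 ± 0.299, Egf at 1.65 ± 0.580 and Nrg1 at 0.957 ± 0.400. Ranges overlapped between the neighbours Areg and Hbegf, Hbegf and Tgfa, Ereg and Btc, Btc and Egf, and Egf and Nrg1, whose order is therefore not fixed by these libraries. Gaps without overlap separated Erbb3 from Erbb2, Erbb2 from Areg, Tgfa from Egfr and Egfr from Ereg.

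In EPR cKO the order was the same except for its end, where Egf was last. Nrg1 was at 1.52 ± 0.623 RPKM and Egf at 0.591 ± 0.113 RPKM, without overlap of their ranges, and Nrg1 was above Egf in 6 of 6 libraries. In EPR fl/fl the opposite order held in 5 of 6 libraries. Btc and Nrg1 overlapped in EPR cKO, as did Areg and Hbegf, Hbegf and Tgfa, and Ereg and Btc.

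**Figure D3:**
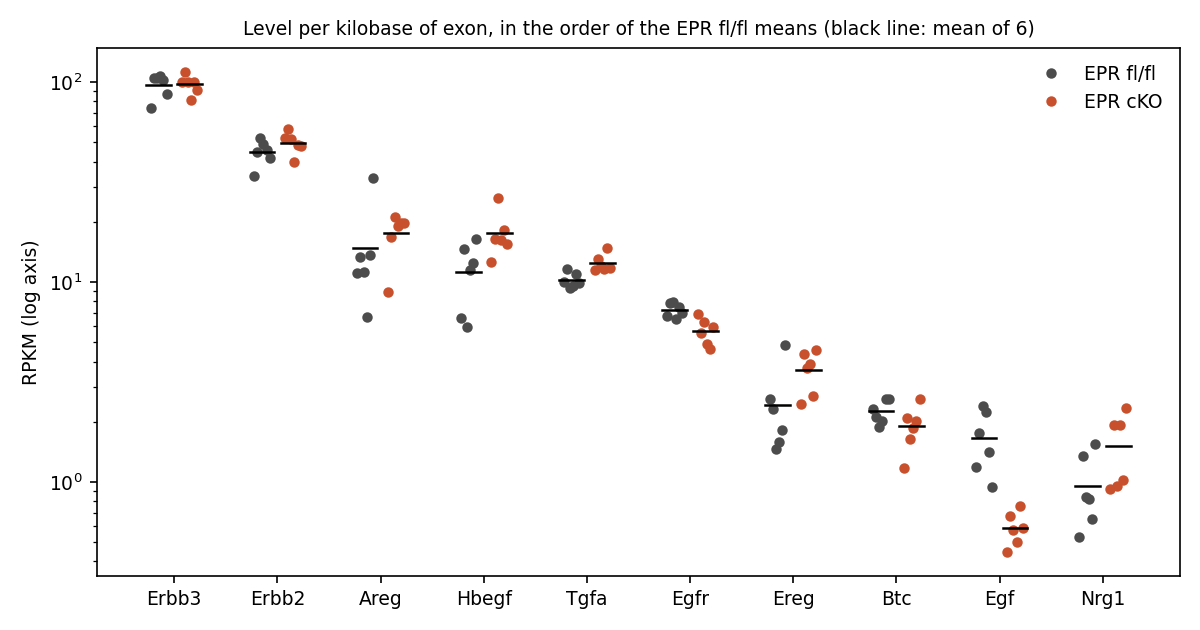
RPKM of each member in each library on a log axis, ordered by the EPR fl/fl mean, with EPR fl/fl in grey, EPR cKO in red and a black line at each mean. Erbb3 and Erbb2 are the highest in both groups, at means of 96.7 and 44.6 RPKM in EPR fl/fl, and Egf falls below Nrg1 in EPR cKO.

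The make-up of the ligand pool follows from these levels and is given as a description. Areg, Hbegf and Tgfa together formed most of the summed RPKM of the 7 ligands in both groups, with shares of 32.2%, 25.7% and 24.8% in EPR fl/fl and 31.4%, 31.6% and 23.1% in EPR cKO. The share of Egf was 4.25 ± 2.201% in the controls and 1.082 ± 0.171% in EPR cKO, and the highest EPR cKO share of 1.28% was below the lowest control share of 1.36%. The ratio of Tgfa to Egf was 6.91 ± 2.54 and 21.4 ± 2.46, again without overlap. Summed ligand RPKM was 43.6 ± 13.8 and 55.2 ± 9.39 in the same order, and Egf was a small part of it in both groups.

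Among the receptors, the ratio of Erbb2 to Egfr was 6.16 ± 0.85 in the controls and 8.82 ± 1.26 in EPR cKO, with ranges of 5.04 to 7.53 and 7.55 to 10.4. The ratio of Erbb3 to Erbb2 was 2.17 ± 0.12 and 1.96 ± 0.07, with ranges that overlapped. Erbb4, the remaining receptor, was at most at 0.127 CPM in any library and was not tested.

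The other genes of the pathway were described by role, as 64 genes of which 60 were tested. At an adjusted p under 0.05, 1 fell and 3 rose, 6.67% together beside 2.46% of all tested genes. These lists were chosen with earlier results of these data known, so their share is not an independent comparison. Among the estimates 21 were below 0 and 39 above 0, beside 7522 and 8430 of all tested genes, with a median of 0.07. Of the 4 called genes Etv5 was called in all 19 other fits, while the other 3 were lost in some fits, as given for each. Without EPR cKO 1 the count was 16, or 26.7%, beside 21.8% of all genes tested in that fit. When any other library was left out the share was 1.67% to 6.67%, beside 1.11% to 2.22% of all genes.

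Of the other family ligands and receptors, Epgn, Nrg2, Nrg3 and Erbb4 were too low to test. Nrg4, a neuregulin that binds Erbb4, was at 2.34 to 5.20 CPM with a median of 2.86 in EPR fl/fl and at 0.479 to 3.74 CPM with a median of 1.33 in EPR cKO. The groups overlapped, and the log2 difference of -1.07 ± 0.43 (SE, unadjusted p = 0.0274) had an adjusted p of 0.215. Nrg4 was called without EPR cKO 1, where the estimate was -1.53 (adjusted p = 0.0118), and with limma-voom weights (adjusted p = 0.0152), and its estimate was -0.69 with the composition covariate.

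In the ligand shedding list, which holds the proteases that release ligands and their regulators, 1 of 9 genes rose and none fell. Over all tested genes 0.884% rose and 1.57% fell. Rhbdl2, a rhomboid protease of the cell surface that can cut EGF family precursors, was at 13.6 to 20.2 CPM with a median of 17.2 in EPR fl/fl and at 18.8 to 26.6 CPM with a median of 25.0 in EPR cKO, with overlap of the groups. Its log2 difference was 0.48 ± 0.11 (SE, adjusted p = 0.0393), and it stayed past the threshold when EPR fl/fl 2 or EPR cKO 1 was left out but not when any of the other 10 libraries was, where adjusted p reached 0.122. The call was also lost with total counts, with no low-count filter, with the replicate block and with the composition covariate, with adjusted p up to 0.160.

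None of the 23 adaptor and kinase genes passed the threshold, and 6 had an unadjusted p under 0.05, 2 lower and 4 higher, beside 7.12% lower and 11.1% higher of all tested genes. Without EPR cKO 1 there were 7 called, 4 lower and 3 higher, or 30.4% of the list beside 21.8% of all genes in that fit. The smallest p was that of Pik3cb, a catalytic subunit of phosphoinositide 3-kinase, at 21.0 to 27.3 CPM in EPR fl/fl and 17.0 to 20.8 CPM in EPR cKO. Its groups did not overlap, and the log2 difference of -0.32 ± 0.09 (SE) had an adjusted p of 0.0736. It was called without EPR cKO 1 (-0.36, adjusted p = 0.0132), with the DESeq2 Wald test (adjusted p = 0.0159) and with limma-voom weights. The median log2 fold change of the list was 0.04.

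Among 17 feedback inhibitors and genes of receptor turnover, 1 rose and none fell, beside 0.884% and 1.57% of all tested genes. Dusp4, a phosphatase that inactivates MAP kinases, was at 5.49 to 8.51 CPM with a median of 6.81 in EPR fl/fl and at 8.58 to 10.9 CPM with a median of 10.1 in EPR cKO. All EPR cKO libraries were above all controls by a narrow margin, with a log2 difference of 0.52 ± 0.12 (SE, adjusted p = 0.0437). It remained past the threshold in 2 of the 12 fits that left out a library, those without EPR fl/fl 2 or EPR cKO 1, and adjusted p reached 0.126 in the others. It was lost as well with total counts, with no low-count filter, with the replicate block and with the composition covariate, with adjusted p up to 0.157.

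The ERK-responsive genes had the widest spread, with 8 of 10 estimates above 0 and a median log2 fold change of 0.56. The feedback list, which holds Dusp5, Dusp6 and the Spry genes, had a median of 0.05. Of the 10 ERK-responsive genes 1 rose and 1 fell, beside 0.884% and 1.57% of all tested genes. Without EPR cKO 1 there were 4 called, 1 lower and 3 higher, or 40.0%, beside 21.8% of all genes in that fit. Fosl1, a subunit of the AP-1 transcription factor, was at 0.732 to 1.61 CPM with a median of 1.32 in EPR fl/fl and at 1.82 to 3.74 CPM with a median of 2.58 in EPR cKO, without overlap. It rose, with a log2 difference of 1.14 ± 0.24 (SE, adjusted p = 0.0242), was called in 6 of the 12 fits that left out a library and was not called with the composition covariate (adjusted p = 0.104). The fits without EPR fl/fl 3, EPR fl/fl 4, EPR cKO 2, EPR cKO 3, EPR cKO 5 or EPR cKO 6 lost the call, with adjusted p up to 0.0706.

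Etv5, a transcription factor of the PEA3 group that responds to receptor tyrosine kinase signals, went the other way. It was at 36.0 to 70.2 CPM with a median of 38.4 in EPR fl/fl and at 16.2 to 25.5 CPM with a median of 22.0 in EPR cKO, and every EPR cKO library was below every control. It fell by 1.07 on the log2 scale (SE 0.17, adjusted p = 0.00565), and leaving out 1 library gave -1.13 to -0.89 with adjusted p-values of 0.00289 to 0.0193. At an unadjusted p under 0.05 there were 5 higher and 1 lower of these 10 genes, beside 11.1% and 7.12% of all tested genes.

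**Figure D4:**
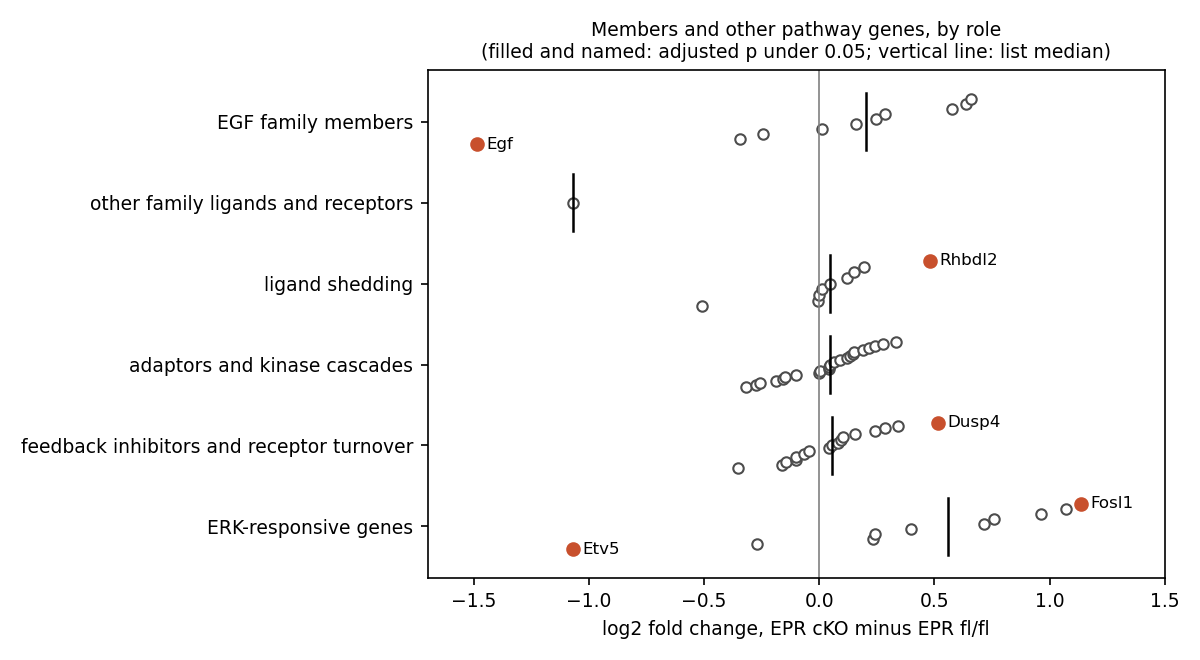
Log2 fold change of every tested gene (x axis), EPR cKO minus EPR fl/fl, in the member list and the 5 other role lists; red points with names have an adjusted p under 0.05 and black vertical lines are list medians. Egf and Etv5 lie lower and Rhbdl2, Dusp4 and Fosl1 higher. The ERK-responsive list has a median of 0.56 and the feedback list one of 0.05.

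The members differed in how far their values moved between settings. Across 7 other ways of scaling, filtering or testing and 12 fits that left out a library, Egf was past the threshold in all 19, and Areg, Btc, Nrg1, Erbb2 and Erbb3 in none. Tgfa and Egfr were each past it in 3, the DESeq2 Wald test, limma-voom with quality weights and the fit without EPR cKO 1. Ereg was past it with limma-voom weights and without EPR fl/fl 6, and Hbegf with limma-voom weights. Over all genes, the DESeq2 Wald test called 5.74%, limma-voom weights 20.5% and the fit without EPR cKO 1 21.8%. The fit without EPR fl/fl 6 called 2.2%, and the reported fit 2.46%.

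**Figure D5:**
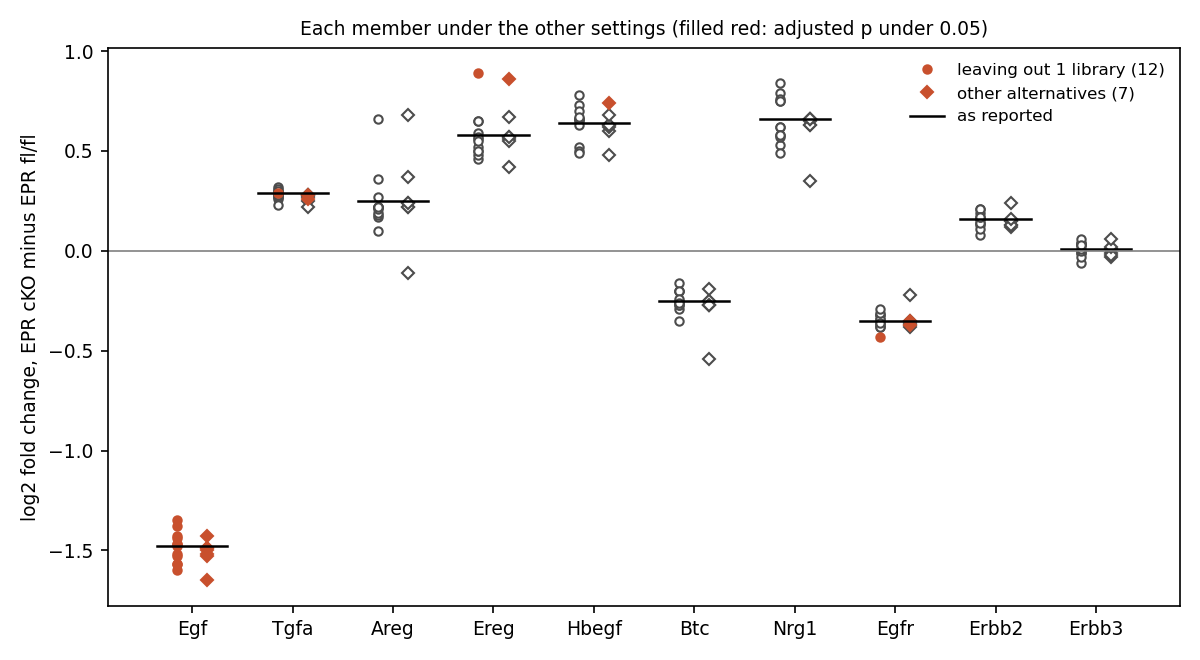
Log2 fold change of each member (y axis) in 12 fits that each left out a library (circles) and under 7 other settings (diamonds), with a black line at the reported value; filled red marks an adjusted p under 0.05. Egf stays between -1.65 and -1.35 and is filled throughout, and the other members are open in most fits.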

How the data were processed

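Per the labels and the methods of the study, the authors prepared stranded total RNA libraries after removal of ribosomal RNA, sequenced them by Illumina NovaSeq, trimmed low-quality read ends with Trimmomatic, mapped the reads to mm10 with STAR 2.5.3a and assigned them to Ensembl genes with featureCounts. The deposited values were raw counts per gene without normalization. The strand and multiple-alignment settings of the counting were not given in the sources used here. Every count column was matched to a sample by name.

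In R 4.3.3, genes reaching 1 CPM in no fewer than 4 libraries were kept (15952 of 36694 with any count), library sizes were TMM-scaled, and EPR cKO was compared with EPR fl/fl by the edgeR 4.0.16 quasi-likelihood F test on all 12 libraries, without covariates, with Benjamini-Hochberg adjustment over all tested genes. The SE was the absolute log2 fold change divided by the square root of F. RPKM was the TMM-scaled CPM per kilobase of summed exon length. A prior count of 2 was added for log2 CPM values per library. The test was first checked on simulated data.

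The members, pathway lists and markers were chosen with earlier results of these data known. The text names the 10 members, Smim31, in each role list the genes with an adjusted p under 0.05 or else the gene with the smallest p, the 3 genes nearest in pattern to each called member, and markers where a result turns on them.

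Alternatives were edgeR with DESeq2 size factors, scaling by total counts, testing every gene with a count, DESeq2 1.42.0 (Wald test), limma 3.58.1 (voom with sample quality weights), the replicate number as a block, the composition score as a covariate, and leaving out each library. Each mouse gave 1 library, and no library repeated another of its group (smallest mean chi-square per gene 23.3 over 30 pairs).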

Additional observations from a re-analysis of the deposited data

Results flagged for a closer look

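Single libraries far from the other 5 of their group were sought in 24 sets of 6 values (the CPM of the 10 members and Smim31, and the composition score, in each group), by the gap to the nearest library as a share of the whole range. There were 4 such values, where chance gives about 1 in 20 sets, or 1.2 in 24. That rate holds for independent sets of normally distributed values. These sets share libraries and are mostly CPM values, so the rate is a rough guide and no excess is read from it.

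Areg stood out in both groups, at 40.18 CPM in EPR fl/fl 6 against 8.159 to 16.56 CPM in the other controls, and at 10.85 CPM in EPR cKO 1 against 20.48 to 25.61 CPM in the rest of its group. Ereg, the gene next to it, was at 19.95 CPM in the same EPR fl/fl 6 library against 6.023 to 10.76 CPM in the other controls. Smim31 was at 0.424 CPM in EPR cKO 2 against 0 to 0.1341 CPM in the other EPR cKO libraries, all far below the controls.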

How the results depend on the processing

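Egf and Smim31 were called in all 7 settings and all 12 fits without a library. Members called numbered 3 with the DESeq2 Wald test, 5 with limma-voom weights, 1 under the other 5 settings, and 1 to 3 when a library was left out (2 without EPR fl/fl 6, 3 without EPR cKO 1). Other pathway genes called numbered 2 with total counts, with no low-count filter, with the replicate block and with the composition covariate, 9 with DESeq2, 19 with limma-voom weights, and 1 to 16 when a library was left out, the most without EPR cKO 1. Marker genes called numbered 6 as reported, 10 with DESeq2, 37 with limma-voom weights, and 2 to 41 when a library was left out (2 without EPR cKO 3, 3 without EPR cKO 6, 41 without EPR cKO 1). The composition score differed by 0.94 to 1.68 when a library was left out. Over all genes, the calls were 251 lower and 141 higher as reported, 247 and 39 with total counts, 243 and 54 with no low-count filter, 473 and 440 with DESeq2, 1891 and 1372 with limma-voom weights and 2273 and 1178 without EPR cKO 1. Leaving out any other library gave 176 to 352 calls, the fewest without EPR fl/fl 4 (145 lower and 31 higher) and EPR cKO 3 (156 and 28).

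Signs reversed for Areg with the composition covariate (-0.11), and for Erbb3 with total counts (-0.03), no low-count filter (-0.01) and limma-voom weights (-0.02), and, on leaving out a library over a range of -0.06 (without EPR fl/fl 1) to 0.06 (without EPR cKO 4), with -0.03 without EPR cKO 2 and -0.01 without EPR fl/fl 6 or EPR cKO 1. The cause was not tested.

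The labels number the libraries 1 to 6 in both groups, and same-numbered libraries did not deviate together (r of deviations 0.10, -0.06, -0.10, 0.34, -0.24 and 0.25), and 2 of the 6 correlated best with their own number. With the replicate block 245 genes were called and Egf was at -1.43 (adjusted p = 0.0253). At the depth of these libraries Epgn, Nrg2, Nrg3 and Erbb4 were too low to test.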
